A study of Homo sapiens with 8 samples.

Results

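ZBTB7A, ZBTB7B and ZBTB7C, the 3 genes of the ZBTB7 family, were followed guide by guide in pooled CRISPR screens for the level of Serpin B5. They were 3 of the 19122 genes targeted in the series, and they were chosen by gene name and selected on one measured pattern, a score of ZBTB7A in the comparison of low with high cells that differed between the 2 guide libraries. Scores of the members are therefore given as a description, with no test. The genome-wide library carried 4 guides for each member, and the TF-focused library, which is aimed at the DNA-binding domains of transcription factors, carried 6. All guides of the members passed the filter, a mean normalized count of at least 30 over the libraries of a table.

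The cells were AsPC-1, an established human pancreatic cancer line that expressed Cas9, collected 8 days after infection with 1 of the libraries, fixed, stained for Serpin B5 and sorted into low, bulk (middle) and high bins. Each of the 8 groups was 1 library: genome-wide low, bulk and high, TF-focused low, bulk and high, and another TF-focused low and bulk, called the second pair below. There was thus no replicate of any bin, and the SD given for a gene is over its guides, which share the target and the cells. The library titled TF-focused high has a description that says bulk, and the second pair carries a genome-wide genotype label, so both were grouped by their titles.

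ZBTB7 proteins are transcription factors with a BTB domain near the start, which pairs proteins and recruits corepressors. They also have C2H2 zinc fingers past the middle of the protein, which bind DNA. ZBTB7A, also known as LRF, represses fetal globin genes in red cell precursors and recruits histone deacetylase complexes. ZBTB7B, also known as ThPOK, directs T cells to the helper fate, and ZBTB7C, also known as Kr-pok, is a further repressor of the family. SERPINB5 encodes Serpin B5, the protein that was stained. Guides of a gene are expected to be richer in low cells where its loss goes with less of this protein. Single guides can also be richer there with no target, as the control guides below show.

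The region of the regular zinc fingers is shown because the TF-focused guides are aimed at DNA-binding domains and because the TF-focused guide names differ by exon. In the canonical GENCODE transcripts on hg38 each member had 2 coding exons, and the search for the regular C2H2 spacing of cysteines and histidines found 1 motif in the former, 1 across the junction and 1 in the latter. Fingers with a less regular spacing, such as the atypical last finger of ZBTB7A, are not found by this search and lie outside the stretches shown. The stretches below run 5′ to 3′ on the coding strand from the start of the first motif found to the end of the last motif found, and capitals mark the codons of the zinc-binding cysteines and histidines. The ZBTB7A stretches lie at chr19:4053971-4054083 and chr19:4048127-4048244 on the minus strand, those of ZBTB7B at chr1:155015702-155015814 and chr1:155016220-155016337 on the plus strand, and those of ZBTB7C at chr18:48039900-48040012 and chr18:48029794-48029911 on the minus strand.
ZBTB7A first coding exon: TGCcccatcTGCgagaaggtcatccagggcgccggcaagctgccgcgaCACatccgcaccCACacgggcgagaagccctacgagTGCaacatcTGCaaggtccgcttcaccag
ZBTB7A last coding exon: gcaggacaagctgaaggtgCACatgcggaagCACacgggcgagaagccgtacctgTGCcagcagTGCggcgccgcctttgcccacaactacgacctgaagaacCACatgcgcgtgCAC
ZBTB7B first coding exon: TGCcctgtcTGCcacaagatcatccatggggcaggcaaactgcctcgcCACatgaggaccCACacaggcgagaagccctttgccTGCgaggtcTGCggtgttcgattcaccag
ZBTB7B last coding exon: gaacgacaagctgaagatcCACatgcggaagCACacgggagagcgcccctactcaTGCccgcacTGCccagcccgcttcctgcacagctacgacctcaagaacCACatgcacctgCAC
ZBTB7C first coding exon: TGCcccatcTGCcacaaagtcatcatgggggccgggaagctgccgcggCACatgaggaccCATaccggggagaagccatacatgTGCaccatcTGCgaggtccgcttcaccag
ZBTB7C last coding exon: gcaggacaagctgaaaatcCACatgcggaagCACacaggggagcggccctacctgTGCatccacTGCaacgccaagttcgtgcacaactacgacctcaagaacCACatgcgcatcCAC
Over the 231 bases of both stretches, ZBTB7A shared 81.8% with ZBTB7C and 76.6% with ZBTB7B, and ZBTB7B shared 77.5% with ZBTB7C. Guide names place ZBTB7A guides in E2 and E3, ZBTB7B guides in E4 and E5 and ZBTB7C guides in E2 and E3. In the transcripts shown, the coding exons are exons 2 and 3 for ZBTB7A and ZBTB7B and exons 4 and 5 for ZBTB7C. The exon numbers in the names thus match these transcripts for ZBTB7A only. The tables hold no guide sequence, so the guides were not placed on these stretches. A match of one member's guide to another member was not tested.

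Guide ratios were log2 of normalized counts in the first bin over the second, with a pseudocount of 5 added to each, less the median over guides that target a gene, and the score of a gene was the mean over its guides. In the genome-wide screen, ZBTB7A guides were richest in low cells, intermediate in bulk cells and poorest in high cells. Guide sg38559 had a normalized count of 2616 in low, 1248 in bulk and 479 in high cells. Guide sg38560 had 3465, 2326 and 1309, and guide sg38561 had 2524, 1518 and 962. Guide sg38562, the least abundant, had 779, 299 and 137. All 4 guides fell in the order low, bulk, high, and their log2 ratios of low over high were 2.44, 1.40, 1.39 and 2.47.

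Counting error was small against these ratios. The exact (Clopper-Pearson) 95% interval of the ratio of sg38562, the guide with the fewest reads, was 2.20 to 2.75, and that of sg38559 was 2.29 to 2.58. These intervals cover the counting of reads only, since the reads are PCR copies with no stated molecular identifiers. The ZBTB7A score of low over high was 1.92 ± 0.61 (SD over 4 guides), a 3.79-fold difference, and it ranked 26 of 19113 genes. The 994 control guides had an SD of 0.16 in the same comparison, and none of them was above any of the 4 ZBTB7A guides.

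A gene was called, as a description, where its score was at least 1 from 0 on the log2 scale (2-fold). In low over high cells 1 of the 3 members was called, ZBTB7A, against 1.58% of all genes scored, with 1.09% called toward low and 0.492% toward high cells. In low over bulk cells 0 members were called, against 0.0785% of genes, and in high over bulk cells 0, against 0.623%. ZBTB7A lay just short of the fold in both, with 0.93 ± 0.35 in low over bulk cells (rank 28 of 19113) and -0.99 ± 0.31 in high over bulk cells (rank 60 from the lowest). These 3 comparisons share libraries, so they do not count separately. For scale, SERPINB5 scored 7.08 ± 1.29 and KLF5, the zinc finger factor that the study centres on, 4.70 ± 1.19 in low over high cells.

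**Figure D1:**
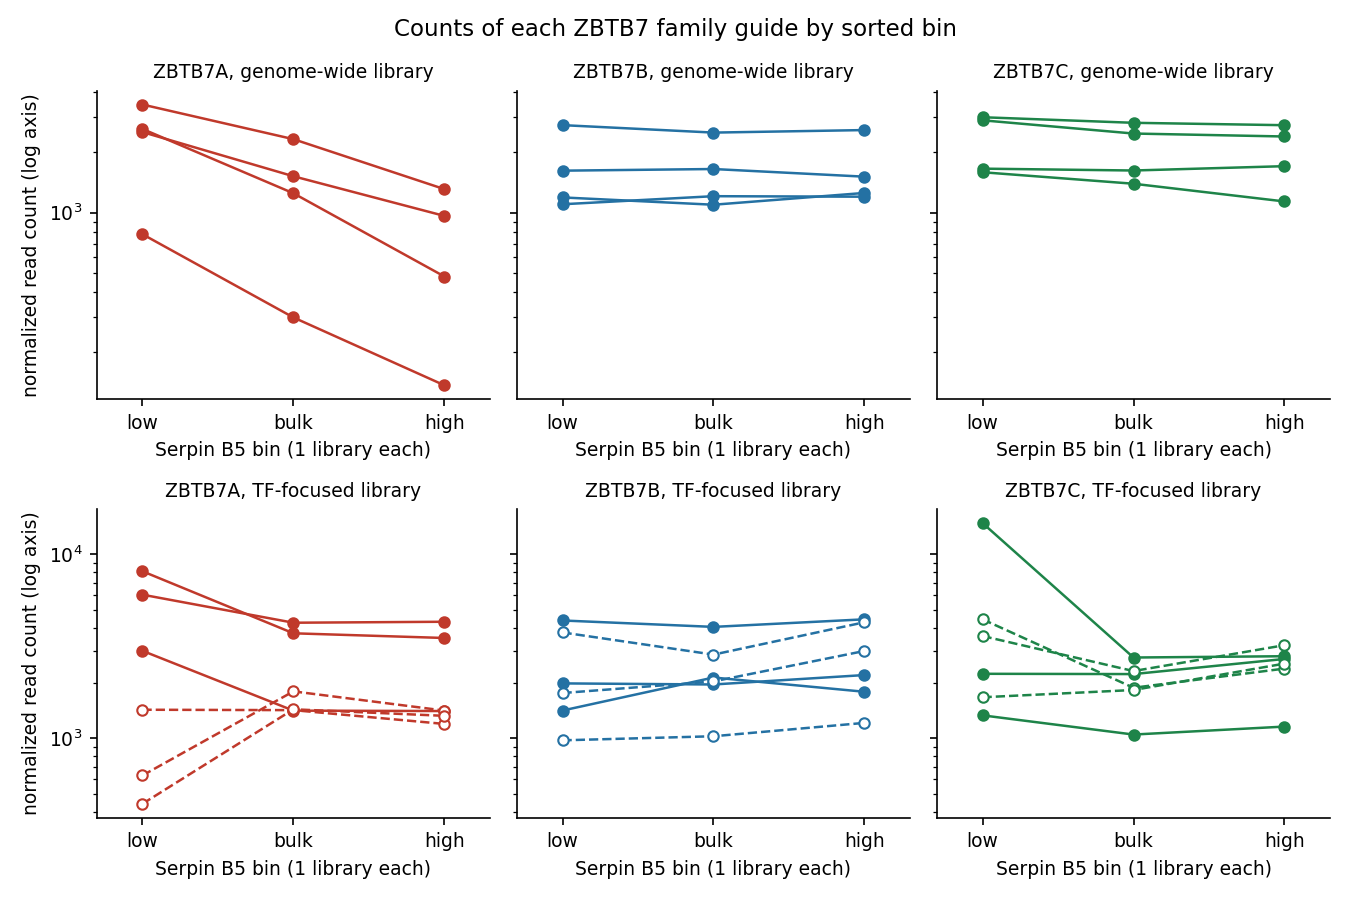
Normalized read count (log axis) of each member guide in low, bulk and high cells, with 1 line per guide and the upper row for the genome-wide and the lower for the TF-focused library; open circles with dashed lines are guides named for the later exon. The 4 genome-wide ZBTB7A guides descend from low to high cells, while the TF-focused ZBTB7A guides split in low cells between 8095 and 441.

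ZBTB7B guides did not show this order in the genome-wide screen, and ZBTB7C guides showed it in 3 of 4 guides over smaller differences. The ZBTB7B guides had normalized counts of 1100 to 2734 in low, 1094 to 2509 in bulk and 1200 to 2583 in high cells. The ZBTB7B score of low over high was -0.00 ± 0.11, with 2 guides above 0 and 2 below, at rank 9809 of 19113. The ZBTB7C guides had 1590 to 2994 in low, 1393 to 2808 in bulk and 1136 to 2732 in high cells. ZBTB7C scored 0.21 ± 0.22 at rank 2259, with 3 of its 4 guides above 0, and 0.13 ± 0.09 in low over bulk cells with 4 of 4 guides above 0. The ZBTB7C guides ranged from -0.04 to 0.48 in low over high cells, and 5 of the 994 control guides were above the highest of them.

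ZBTB7C lies on chromosome 18, as does SERPINB5, 15064 kb away by RefSeq positions on GRCh38. The 242 scored genes placed on this chromosome had a median of 0.10 in low over high cells, and the 8 other genes within 1000 kb of ZBTB7C had a median of 0.14 and a range of -0.01 to 0.45. The 0.21 of ZBTB7C was within that range. ZBTB7A, on chromosome 19, ranked 2 of 1298 genes there. The 53 other genes within 1000 kb of ZBTB7A had a median of 0.09 and a range of -0.23 to 0.99, below its 1.92. Whether position had a part in the ZBTB7C value was not tested.

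In the TF-focused screen the ZBTB7A guides were split in low over high cells, with those named E2 above those named E3. This grouping was chosen after the values were seen. The 3 E2 guides, numbered 1, 2 and 3, had normalized counts of 8095, 2991 and 6040 in low cells, 3725, 1415 and 4252 in bulk cells and 3513, 1408 and 4304 in high cells. The E3 guides, numbered 10, 13 and 14, had 1431, 629 and 441 in low cells, 1424, 1801 and 1439 in bulk cells and 1198, 1416 and 1326 in high cells. The bulk and high counts of each guide lay close together, and the split was in the low cells.

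The low over high ratios of the E2 guides were 1.21, 1.09 and 0.49 and those of the E3 guides were 0.26, -1.16 and -1.57. The ratios of the 2 sets of guides did not overlap. The E3 guide at 0.26 was nearer to the E2 guide at 0.49 than to the other E3 guides. The ZBTB7A score was 0.05 ± 1.16 (SD over 6 guides) at rank 512 of 1439. The mean was 0.93 over the E2 guides and -0.82 over the E3 guides, a difference of 1.75. Of 317 genes with at least 2 guides in each of 2 exons, ZBTB7A ranked 8 by the size of this difference, against a median size of 0.45. Guides of 2 exons did not overlap in 16 of the 92 genes with 3 guides in each (17.4%), so a split without overlap was not rare.

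The TF-focused control guides covered the whole range of the ZBTB7A guides. In low over high cells 49 control guides had an SD of 0.69 and ran from -1.76 to 1.40, and 7 of them (14.3%) were at least 1 from 0, against 1 of 994 (0.101%) in the genome-wide screen. Of these controls, 3 were above the highest ZBTB7A guide and 1 was below the lowest. Each ZBTB7A guide was thus inside the range of guides with no target. The ratio of low over high also moved with abundance in this table, with r = 0.345 against the log2 bulk count over 8723 guides, where the genome-wide table had -0.099 over 76980. These guides share libraries and depth, and the part of abundance in the ZBTB7A split was not tested.

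**Figure D2:**
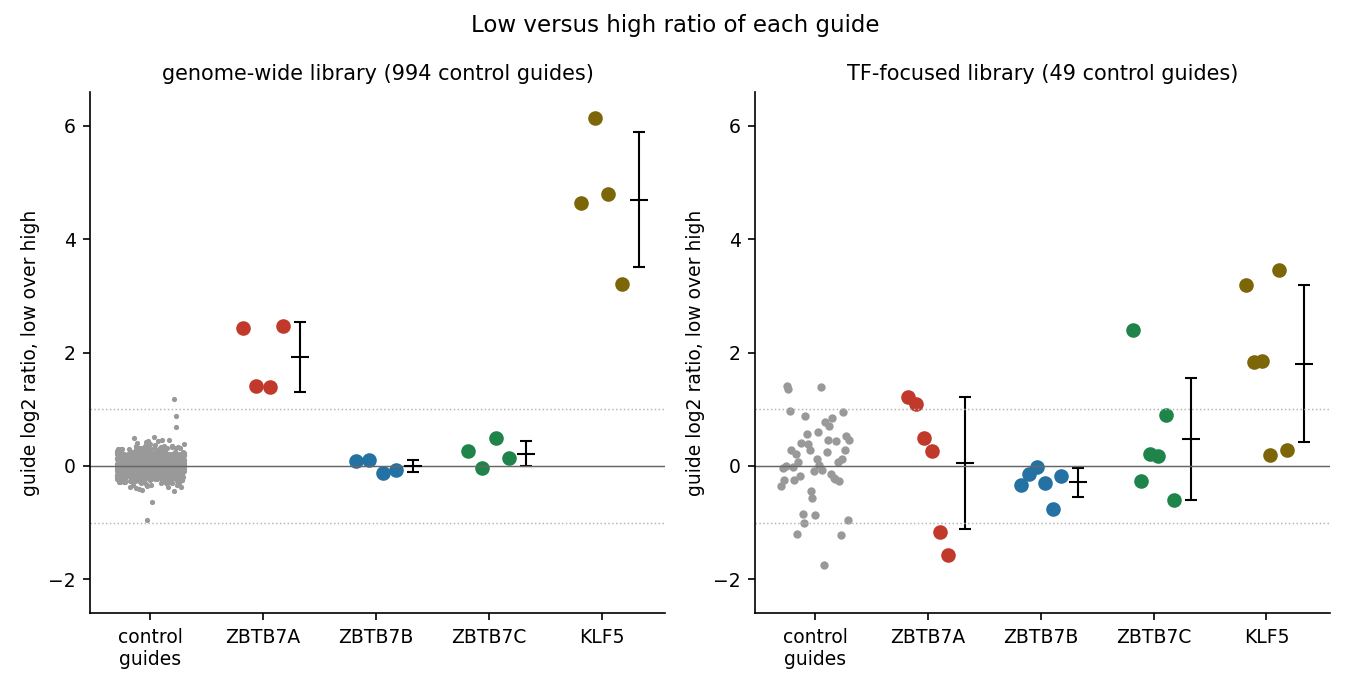
Guide log2 ratio of low over high cells for control guides (grey), the ZBTB7 members and KLF5 with the genome-wide library on the left and the TF-focused library on the right; black marks are the mean and SD over guides and dotted lines are at 1 and -1. The ZBTB7A guides stand at 1.39 to 2.47 on the left, above all 994 controls, and at -1.57 to 1.21 on the right, within the range of the 49 controls.

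With the TF-focused library 0 of the 3 members were called in low over high cells, against 2.08% of genes, and 0 in low over bulk cells, against 6.18%. In high over bulk cells 0 were called, against 0.0695%, and in the second pair 0, against 4.52%. ZBTB7A scored -0.09 ± 1.25 in low over bulk cells and -0.12 ± 0.14 in high over bulk cells. The high over bulk ratios of its 6 guides, from -0.33 to 0.03, were close together, unlike those with the low library. KLF5 scored 1.80 ± 1.39 in low over high cells and was the only gene with both libraries at 1 or more.

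ZBTB7B had the smallest spread over guides of the 3 members in low over high cells of the TF-focused screen. Its 6 guides had normalized counts of 976 to 4373 in low, 1027 to 4036 in bulk and 1214 to 4437 in high cells. All 6 low over high ratios were below 0, from -0.75 to -0.02, with a score of -0.29 ± 0.25 at rank 1030 of 1439. Its high over bulk score was 0.25 ± 0.31 at rank 75. The E5 guides numbered 8 and 9 had 0.56 and 0.60 in that comparison and were above all 49 control guides. These controls had a median of -0.13 and reached 0.54. Of the guides that target a gene, 95.4% and 96.4% were below these E5 guides. The E5 guide numbered 20 had 0.26, with 6 control guides above it, and the E4 guides had -0.24 to 0.19. The E4 and E5 guides of ZBTB7B did not overlap there, nor did the E2 and E3 guides of ZBTB7A and of ZBTB7C, against 14 of the 92 genes with 3 guides in each of 2 exons (15.2%).

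The TF-focused score of ZBTB7C turned on 1 guide. The E2 guide numbered 11 had a normalized count of 14806 in low, 2751 in bulk and 2796 in high cells, and its ratio of 2.41 in low over high cells was above all 49 controls. The other 5 ZBTB7C guides had 1334 to 4437 in low, 1049 to 2322 in bulk and 1159 to 3209 in high cells, with ratios of -0.60 to 0.89. The score of ZBTB7C was 0.47 ± 1.07 at rank 74 of 1439, and without the E2 guide numbered 11 it was 0.08. In high over bulk cells all 6 guides were above 0, from 0.04 to 0.49, with a score of 0.30 ± 0.18 at rank 37. Each was inside the range of the 49 control guides, which reached 0.54, with 1 to 17 controls above it.

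In the second pair of TF-focused libraries the E2 guides of ZBTB7A were again above its E3 guides. The ZBTB7A E2 guides had low over bulk ratios of 0.89, 0.73 and 0.31, where the first pair had 1.11, 1.07 and 0.50. The E3 guides had 0.11, -1.40 and -1.32, where the first pair had -0.00, -1.52 and -1.70. In both pairs the E3 guide numbered 10 was nearer to the lowest E2 guide than to the other E3 guides. The E2 and E3 guides did not overlap in either pair, against 17 of the 92 genes with 3 guides in each of 2 exons (18.5%) in each pair. The difference between the means of the E2 and E3 guides was 1.97 in the first pair (rank 17 of 317 genes by size) and 1.51 in the second (rank 25 of 318), lower ranks than in low over high cells. The ZBTB7C E2 guide numbered 11 had 1.37 in the second pair and 2.42 in the first, above all control guides in both. Across the 49 control guides, which have no target, the ratios of the 2 pairs correlated with r = 0.976, as described across guides, and with 0.973 over all 8722 guides. The counts of the pairs differed beyond sampling noise (chi-square per degree of freedom of 21.6 for low and 19.0 for bulk), so they were not the same reads, and the labels do not call the second pair a replicate. Whether the ZBTB7A split depends on its target was not tested.

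**Figure D3:**
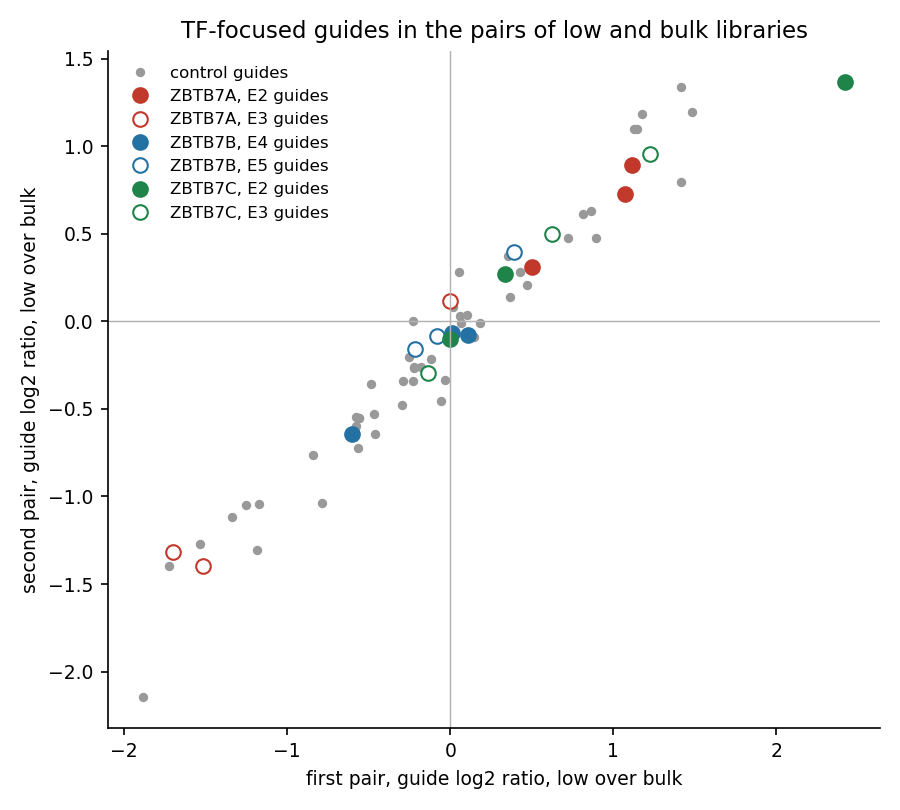
Log2 ratio of low over bulk cells of TF-focused guides in the first pair of libraries (horizontal) and the second pair (vertical), with controls in grey and the earlier exon of each member filled and the later exon open. The members lie along the line that the 49 control guides form (r = 0.976), with the ZBTB7C E2 guide numbered 11 at the upper right.

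The difference between libraries, the pattern for which the genes were chosen, was 1.87 for ZBTB7A in low over high cells (genome-wide minus TF-focused score), rank 8 of 1432 genes scored with both. The difference was 0.29 for ZBTB7B and -0.26 for ZBTB7C, at ranks 468 and 1167, beside a median of 0.09 and an SD of 0.48 over all 1432. Of these 1432 genes, 18 were at 1 or more in the genome-wide screen, and ZBTB7A ranked 5 among them. With the TF-focused library 1 gene, KLF5, was at 1 or more and 29 were at -1 or less, so at most 1 gene could be high with both. KLF5 was 1 of the 18 (5.56%) in the genome-wide screen and 1 of 1 with the TF-focused library. The 5 largest differences were those of NFE2L2 (0.84 in the genome-wide and -2.17 in the TF-focused screen), KLF5 (2.90), TADA2B (2.42), SOX9 (2.08) and TFAP2A (2.04), and the 5 at the other end were those of KLF3 (-2.10), MYRF (-1.78), TGIF1 (-1.68), ZNF281 (-1.49) and RXRA (-1.33).

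**Figure D4:**
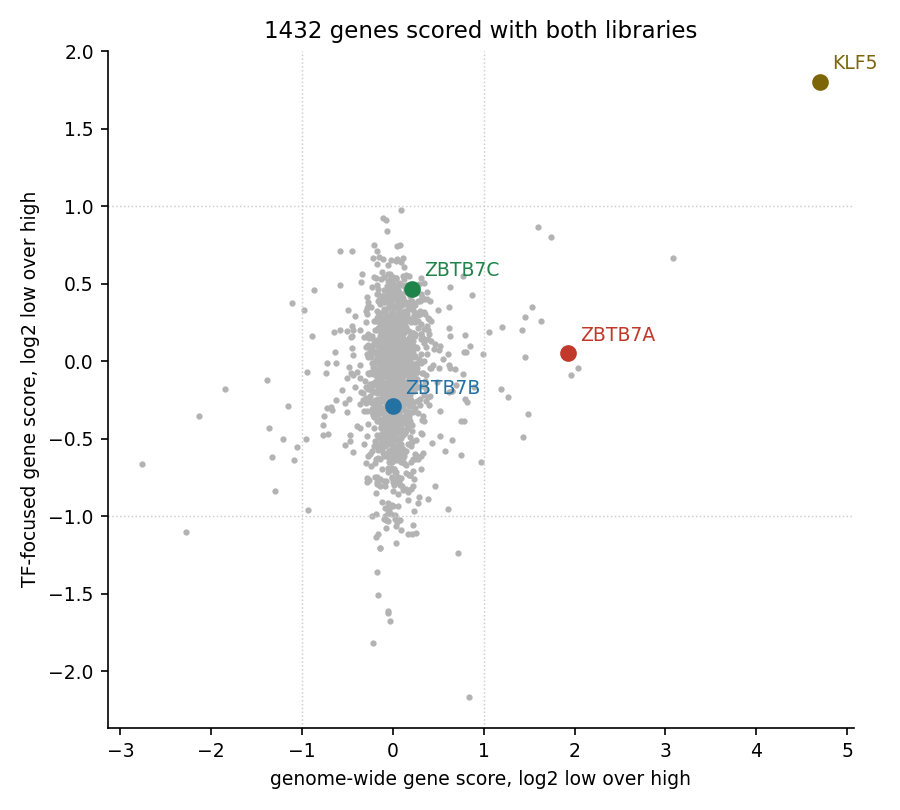
Gene score (mean log2 ratio of low over high cells) with the genome-wide library (horizontal) and the TF-focused library (vertical) for 1432 genes, with dotted lines at 1 and -1. ZBTB7A lies at 1.92 and 0.05, among genes high on the horizontal axis only, and KLF5 at 4.70 and 1.80.

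In a list of BTB genes, nearly all with zinc fingers, ZBTB7A had the highest score of low over high cells in the genome-wide screen. That score is part of the pattern for which the genes were chosen, so its place here is not separate support. Of the 48 other genes in the list, 47 were scored. In low over high cells 0 of the 47 were called in either direction, against 1.58% of all genes. For a list of this size, 0 called was near that share. Of the 47, 17 were above 0, and the median was -0.06, beside 0.00 for all genes. Their scores ran from -0.96 ± 0.65 for ZBTB11 to 0.23 ± 0.52 for ZNF131, which were named after their values were seen. With the 3 members included, ZBTB7A ranked 1 of 50, ZBTB7C 4 and ZBTB7B 20. In the TF-focused screen 41 of the list were scored, and the members ranked 21, 38 and 7 of 44 in the order ZBTB7A, ZBTB7B, ZBTB7C.

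**Figure D5:**
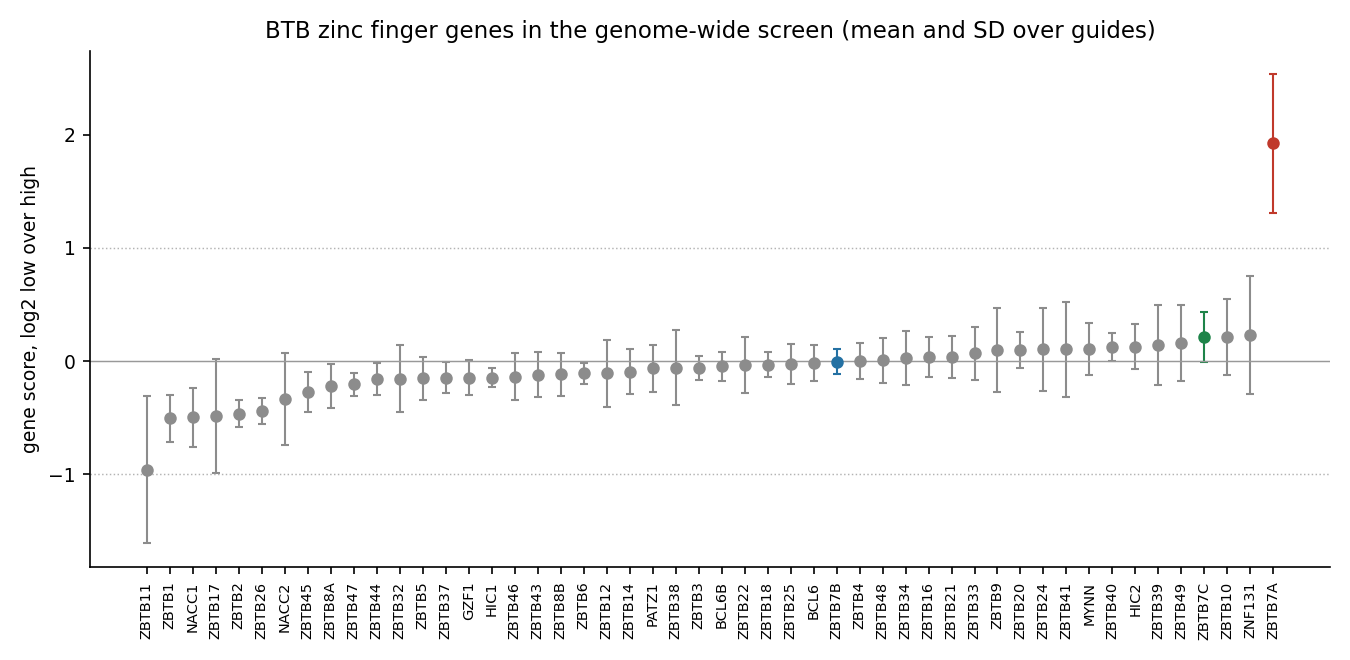
Gene score (mean and SD over guides of the log2 ratio of low over high cells) of 50 BTB genes, nearly all with zinc fingers, in the genome-wide screen, in order of score, with ZBTB7A in red, ZBTB7B in blue and ZBTB7C in green. ZBTB7A is at 1.92 and the other 49 lie between -0.96 and 0.23.

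The corepressor list, of complexes that BTB factors recruit, held genes on both sides. Of its 32 genes, 3 were called toward low and 2 toward high cells in the genome-wide screen, against 1.09% and 0.492% of all genes. The list median was 0.10, beside 0.00 for all genes. CHD4, the ATPase of the NuRD complex, scored 2.27 ± 0.11, TBL1XR1, a subunit of the NCoR complex, 1.62 ± 0.62, and GATAD2A, another NuRD subunit, 1.36 ± 0.28. SIN3A, the scaffold of the Sin3 complex, scored -2.02 ± 0.62, and GPS2, a subunit of the NCoR complex, -1.22 ± 0.36. Members of the NCoR complex were thus called in both directions. In the TF-focused screen 8 of the list were scored and 0 were called, against 2.08% of all genes in low over high cells.

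A further list held 13 genes that the literature links to ZBTB7 proteins, and all were scored in the genome-wide screen. In low over high cells 1 was called, against 1.58% of all genes. It was SOX9, a transcription factor gene, with 2.04 ± 0.66, beside a list median of -0.01 and a lowest score of -0.71. Whether SOX9 is a target of ZBTB7 proteins was not tested. With the TF-focused library SOX9 had a score of -0.04. By the distance between scores in low over bulk and high over bulk cells, the 5 genes nearest to ZBTB7A in the 3 genome-wide libraries were RPL17-C18orf32 (0.018), TRPM7 (0.030), POLR2J (0.043), SUPT20H (0.050) and POLR2I (0.110). The median distance of all genes was 1.36. Most genes score near 0 in both comparisons, so this median mainly reflects the scores of ZBTB7A itself. The scores of these 5 genes in low over high cells ran from 1.91 to 2.04, with an SD over guides of 0.33 for RPL17-C18orf32 and 1.99 for POLR2J.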

How the data were processed

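AsPC-1 cells were screened with 2 guide libraries, and 8 libraries in 3 tables were used. The authors deposited raw read counts per guide, with no normalization. MAGeCK and hg38 appear in the submitters' processing notes, and no MAGeCK output was used.

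Counts were scaled by median-ratio size factors over all guides of a table, guides with a mean normalized count under 30 were left out (76980 genome-wide, 8723 and 8725 TF-focused guides stayed), and the median ratio over guides that target a gene was subtracted. A gene needed at least 2 guides. Total counts were 90421905 to 102155005 in genome-wide and 9122855 to 38031483 in the first TF-focused libraries, and 10026967 and 30756868 in the second pair. Groups came from sample titles, with 1 library per bin, so no test between bins was run. A chi-square test compared the counts of the 2 TF-focused pairs, to see whether they were the same library. Python 3.11.15, numpy 2.4.6, pandas 2.3.3, scipy 1.17.1 and matplotlib 3.10.9 were used, with GENCODE 44 for exons. Scoring was tested on simulated data, with a smaller spread over guides than the TF-focused controls had and no link to abundance. Alternatives were size factors, centring, pseudocount, filter, gene summary, guides left out and the fold of a call.

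Named genes were the 3 members, SERPINB5, KLF5, the 5 nearest genes to ZBTB7A and the 5 largest library differences each way. From each list, up to 4 called genes at each end whose guides share a sign were also named. The lists were of BTB genes, corepressors and genes linked to ZBTB7. The ends of the BTB list were named outside this rule. Members and lists were chosen with earlier results of these data known.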

Additional observations from a re-analysis of the deposited data

How the results depend on the processing

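The ZBTB7A score of low over high cells with the genome-wide library stayed called under every alternative run. It was between 1.71 and 1.94 over the 8 settings of scaling, centring, pseudocount, filter and gene summary, and between 1.74 and 2.10 without 1 guide at a time. The TF-focused score of ZBTB7A, 0.05, was between -0.01 and 0.42 under these settings and the deposited gene column, and between -0.18 and 0.38 without 1 guide, and it was not called in any of them. The difference between libraries was 1.29 to 1.93. The ZBTB7A scores of low over bulk and high over bulk cells, just short of the fold, were past it without sg38560 (1.05 and -1.04) and without sg38561 (1.00 and -1.10). ZBTB7C in low over bulk TF-focused cells, 0.75, was 1.06 with counts summed over guides, and 0.41 without the E2 guide numbered 11. With a call at 1.5-fold, at which ZBTB7A (0.93 and -0.99) and ZBTB7C (0.75) were also called in these comparisons, the genes called were 747, 133 and 456 in the genome-wide low over high, low over bulk and high over bulk comparisons. They were 177, 334 and 16 in the same TF-focused comparisons and 270 in the second pair. With counts summed over guides they were 12, 36 and 2 with the TF-focused library and 23 in the second pair, and with the median over guides 2 in TF-focused high over bulk cells. The causes were not tested. No paired analysis was possible because each group held 1 library. The spread between libraries of the same bin is unknown, and the TF-focused high library had the lowest total count, 9122855.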
